A study of Mus musculus with 6 samples.

Results

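Of 41 genes that build or control the actin cytoskeleton, 32 were tested in mouse embryonic stem (ES) cells overexpressing Prdm14. Of these 32, 4 (12.5%) fell and none rose, where 2.50% of all tested genes were called lower and 1.50% higher. The 4 were Acta2, which encodes smooth muscle alpha-actin, Pdlim1 and Pdlim4, which encode PDZ-LIM adaptor proteins of actin stress fibres, and Tpm1, which encodes a tropomyosin that coats the filament. Acta2 was detected on the control arrays alone, so it could only have been lower. The 41 genes were taken from a list of symbols by role, drawn up with earlier results of these data known. They comprised 3 actin isoforms, 6 Pdlim genes, 4 tropomyosins, 5 myosin subunits, 5 transgelins and calponins, 9 focal adhesion and crosslinking genes, 3 genes of the ezrin-radixin-moesin (ERM) family, 5 genes of filament turnover and the intermediate filament gene Vim. A probe of the array was named and tested for 32 of them, out of 8529 tested genes. The other 9, Actg1, Myl9, Tagln, Cnn1, Cnn3, Tln1, Ezr, Rdx and Gsn, were not analysed here.

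Actin monomers assemble into filaments that tropomyosins stabilise, myosins pull on, and alpha-actinins and filamins crosslink. PDZ-LIM proteins bind alpha-actinin through the PDZ domain and recruit signalling proteins through the LIM domains, and focal adhesions tie the filaments to integrins at the cell surface. Many genes of contractile filaments are controlled by serum response factor (SRF) and its actin-sensing partners, the myocardin-related transcription factors.

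The cells were ES cells of a 129P2 genetic background, cultured in serum, that carried either a Prdm14 overexpression construct or a control vector, with 3 arrays in each group. The overexpressing lines were made from a Rex1-GFPd2 reporter line, and the sources used here do not name the promoter of the construct. Replicates were taken at successive passages, and no label names independent clones, so p-values reflect variation among passages of these cells, and line differences cannot be told apart from an effect of Prdm14. Because whole cultures were measured, fewer cells of a kind and less RNA per cell cannot be told apart either.

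Each Illumina Mouse WG-6 array reported a bead signal for 45281 probes, with a detection p-value against negative control beads. Between 14078 and 14769 probes per array (31.1% to 32.6%) had a detection p under 0.01. Prdm14 signal was 14907, 10751 and 11016 on the overexpression arrays, against 801, 673 and 855 on the control arrays, and the labels thus held on every array. Probes below detection were brighter on the overexpression arrays, with medians of 73.3 to 81.2, than on the control arrays, with medians of 59.6 to 62.8. For this reason signals were background-corrected and quantile-normalised to a log2 scale before testing. Raw signals and normalised values can differ in how far the groups overlap, for bright genes such as Actb as well as for dim ones. All 10 ES cell markers listed, among them Pou5f1, Nanog and Sox2, were detected and tested, and none passed the threshold. Their mean was nevertheless 12.22 to 12.24 on the overexpression arrays and 12.03 to 12.07 on the control arrays. Of the 10, 5 lay above the controls on every overexpression array, against 1250 of all 8529 tested genes. Among these 5 were Klf4 (0.65, limma adjusted p = 0.0138), Dppa3 (0.54) and Nanog (0.34). The part of this marker shift in the differences of the members was not tested.

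A gene was called when its adjusted p was under 0.01 in the limma fit over all 14604 tested probes. By this rule 4 of the 32 tested members (12.5%) were lower with Prdm14 overexpression, where 2.50% of all tested genes were called lower. No member was called higher, against 1.50% of all tested genes, and the called share in both directions together was 4.00%. At an unadjusted p under 0.05 the members numbered 14 lower (43.8%) and 0 higher, against 12.3% lower and 11.9% higher over all tested genes. The normalised values of the 2 groups did not overlap, with all 3 overexpression arrays below all 3 control arrays, for 13 of 32 members (40.6%), against 15.3% of all tested genes. The median log2 difference, overexpression minus control, was -0.23 over the members and -0.0016 over all tested genes. In the same-numbered pairs of arrays, 18 members were lower in all 3 pairs (56.2%), 4 were higher in all 3 (12.5%) and 10 were mixed, against 26.1% lower and 25.5% higher in all 3 pairs over all tested genes. Acta2 passed the detection filter through the control arrays alone, so that it could only have been lower, and these shares describe the members without testing them as a list.

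**Figure D1:**
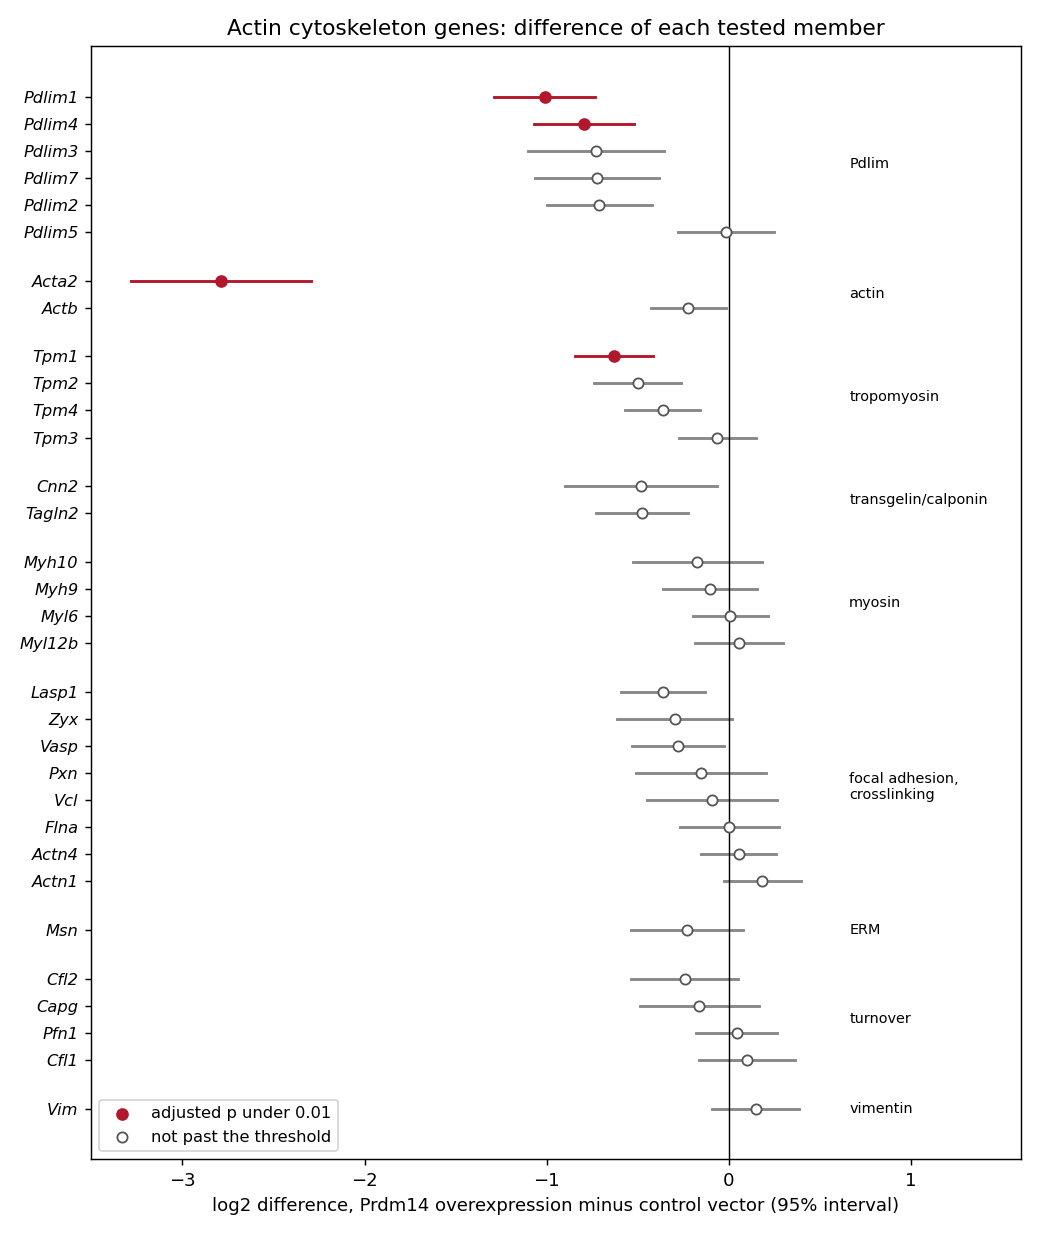
Log2 difference (x axis, Prdm14 overexpression minus control vector, 3 arrays each) of the 32 tested members (y axis, grouped by role), with 95% intervals from the limma fit as bars. Filled red points mark the 4 genes with an adjusted p under 0.01, and 5 of the 6 Pdlim genes lie between -1.01 and -0.71.

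The median log2 difference was -1.51 over the 2 tested actins, of which Acta2 set most of the size, and -0.73 over the 6 Pdlim genes. It was -0.43 over the 4 tropomyosins and -0.48 over the 2 tested transgelin and calponin genes. It was -0.12 over the 8 focal adhesion and crosslinking genes, -0.06 over the 4 filament turnover genes and -0.05 over the 4 myosin subunits. The only tested ERM gene differed by -0.23 and Vim by 0.15. These medians are descriptions, and no difference between roles was tested. Without the Pdlim genes, 2 of 26 members (7.69%) were called lower, against 2.50% of all tested genes. These 2 were Tpm1 and Acta2, of which Acta2 could only have been lower. All overexpression arrays lay below all control arrays for 8 of the 26 (30.8%), against 15.3% of all tested genes.

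The 4 genes that fell are shown here by the sequence just upstream of their start sites, 100 bases from -100 to -1, from the RefSeq promoters of mouse assembly GRCm38.p6. They are printed because these are the proximal promoters of the called genes, and capitals mark stretches that match the SRF-binding CArG box with 1 mismatch. All 4 genes lie on the minus strand: Acta2 at chr19:34255374-34255473, Pdlim1 at chr19:40271617-40271716, Pdlim4 at chr11:54069018-54069117 and Tpm1 at chr9:67049214-67049313.
Acta2: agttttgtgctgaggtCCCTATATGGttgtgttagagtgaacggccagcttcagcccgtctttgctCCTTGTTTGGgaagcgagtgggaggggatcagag
Pdlim1: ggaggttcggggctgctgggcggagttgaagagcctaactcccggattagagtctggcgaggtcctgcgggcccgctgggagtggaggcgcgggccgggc
Pdlim4: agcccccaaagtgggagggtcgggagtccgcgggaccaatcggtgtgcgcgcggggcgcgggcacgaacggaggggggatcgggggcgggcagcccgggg
Tpm1: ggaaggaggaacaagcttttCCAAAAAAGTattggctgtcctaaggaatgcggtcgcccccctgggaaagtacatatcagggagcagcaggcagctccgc
The windows of Pdlim1 and Pdlim4 hold no such stretch, that of Acta2 holds 2 and that of Tpm1 holds 1.

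Among the actins, Acta2 had the largest difference of all members. Its probe (ILMN_2693895) gave signals of 84.8, 72.9 and 87.1 on the overexpression arrays, against 250, 167 and 313 on the control arrays. Every overexpression array lay below every control array, and the gene was detected on 0 overexpression arrays and on all 3 control arrays. On the normalised log2 scale it averaged 4.91 ± 0.14 in overexpressing cells and 7.69 ± 0.49 in control cells (SD, n = 3 each), a difference of -2.79 ± 0.22 (SE, limma adjusted p = 0.000224). Since the overexpression value is a bound, the gene was at least 2.93-fold lower on this scale, where each dim array was set to the lowest value among its detected probes, a bound that does not carry over to other background corrections. The size depended on the background correction, and the difference was -1.84 without one and -0.92 in the deposited normalised values matched to their arrays. The other 2 probes of Acta2 were too dim to test. Of these, one gave 131, 109 and 119 on the overexpression arrays and 112, 110 and 146 on the control arrays, and the other gave 117, 98.3 and 114 on the overexpression arrays, against 107, 99.7 and 129 on the control arrays. Both overlapped between the groups in raw signal, where the background was brighter on the overexpression arrays. They were detected on 0 overexpression arrays and on 2 and 1 of the control arrays, in the order given. The Acta2 call thus rests on 1 of 3 probes, and the other 2 were not tested.

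Actb encodes the cytoplasmic beta-actin of nearly all cells. Its normalised values were 13.61, 13.62 and 13.69 in overexpressing cells, against 13.80, 13.88 and 13.91 in control cells. They did not overlap, but the difference of -0.22 ± 0.09 did not pass the threshold (limma adjusted p = 0.178), and it lay between -0.26 and 0.03 over the alternative settings. Its signal of 12738 to 14460 in overexpressing cells overlapped with that of 12395 to 15292 in control cells.

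The Pdlim genes were all tested. For 5 of the 6 genes (83.3%) all overexpression arrays lay below all control arrays on the normalised scale, and the same 5 were lower in all 3 array pairs. Over all tested genes these shares were 15.3% and 26.1%. Pdlim1 encodes an alpha-actinin partner on stress fibres. Its probe (ILMN_1234072) gave 2068, 2013 and 2194 in overexpressing cells, against 3001, 3843 and 3948 in control cells, with no overlap in raw signal. It fell by 1.01 on the log2 scale (2.02-fold, SE 0.12, limma adjusted p = 0.00181). Its normalised mean was 10.88 ± 0.20 with overexpression and 11.89 ± 0.10 in control cells (SD, n = 3 each). The call was kept in all 6 fits that left out 1 array (limma adjusted p = 0.00402 to 0.00937) and lost only with no detection filter among the alternatives that kept the groups as labelled (limma adjusted p = 0.0143).

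Pdlim4 encodes an adaptor, also known as RIL, that binds alpha-actinin. Its probe (ILMN_2606162) gave signals of 379, 331 and 386 in overexpressing cells, against 485, 444 and 510 in control cells. These did not overlap, and the gene fell by 0.79 on the log2 scale (1.73-fold, SE 0.12, limma adjusted p = 0.00496). The margin was narrow: the call was lost when any 1 array except overexpression replicate 3 was left out (limma adjusted p = 0.0132 to 0.0275 in those 5 fits), while the difference stayed between -0.87 and -0.69, and it was also lost with no detection filter (limma adjusted p = 0.0256).

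Pdlim2, Pdlim3 and Pdlim7 had differences of nearly the same size and did not pass the threshold. Pdlim2, a nuclear and cytoskeletal adaptor with ubiquitin ligase activity towards transcription factors, had normalised values of 6.67, 6.52 and 6.94 in overexpressing cells, against 7.49, 7.49 and 7.29 in control cells, a difference of -0.71 ± 0.13 (limma adjusted p = 0.0105). It was the uncalled member closest to the threshold and passed it in 8 of 17 alternative settings, for instance with 1 probe per gene fitted (limma adjusted p = 0.00805), a setting chosen after seeing the data. Pdlim3, the actinin-associated LIM protein of muscle Z-discs, had values of 7.03, 7.26 and 7.03 in overexpressing cells, against 7.86, 8.15 and 7.49 in control cells. Its difference was -0.73 ± 0.16 (limma adjusted p = 0.0283). Pdlim7, or Enigma, which links LIM domains to receptor kinases and filaments, had values of 9.26, 9.64 and 9.84 in overexpressing cells, against 10.20, 10.32 and 10.40 in control cells, a difference of -0.73 ± 0.15 (limma adjusted p = 0.0193). With the replicate number as a block, Pdlim3 and Pdlim7 passed the threshold (limma adjusted p = 0.00843 and 0.00647), for 4 called Pdlim genes, whereas Pdlim2 did not (0.0159).

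In raw signal the groups overlapped for Pdlim2, with 199.6, 147 and 191 in overexpressing cells, against 200.3, 198 and 207 in control cells, and also for Pdlim3 and Pdlim7. The groups of these 3 genes were thus apart on the normalised scale and not in raw signal. A second probe of Pdlim2 and one of Pdlim3 were too dim to test. Neither was detected on an overexpression array, and they were detected on 2 and 1 of the control arrays.

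Pdlim5, the enigma homolog that anchors protein kinase C at Z-discs, was the exception in the family. Its values of 7.69, 7.56 and 7.38 in overexpressing cells lay among the 7.46, 7.70 and 7.51 of control cells. The difference was -0.02 ± 0.12, with a 95% interval of -0.28 to 0.25 (limma adjusted p = 0.959). This interval does not reach the differences measured for the other 5 Pdlim genes, but the contrast between family members was not itself tested. A second Pdlim5 probe gave -0.18 (limma adjusted p = 0.359).

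**Figure D2:**
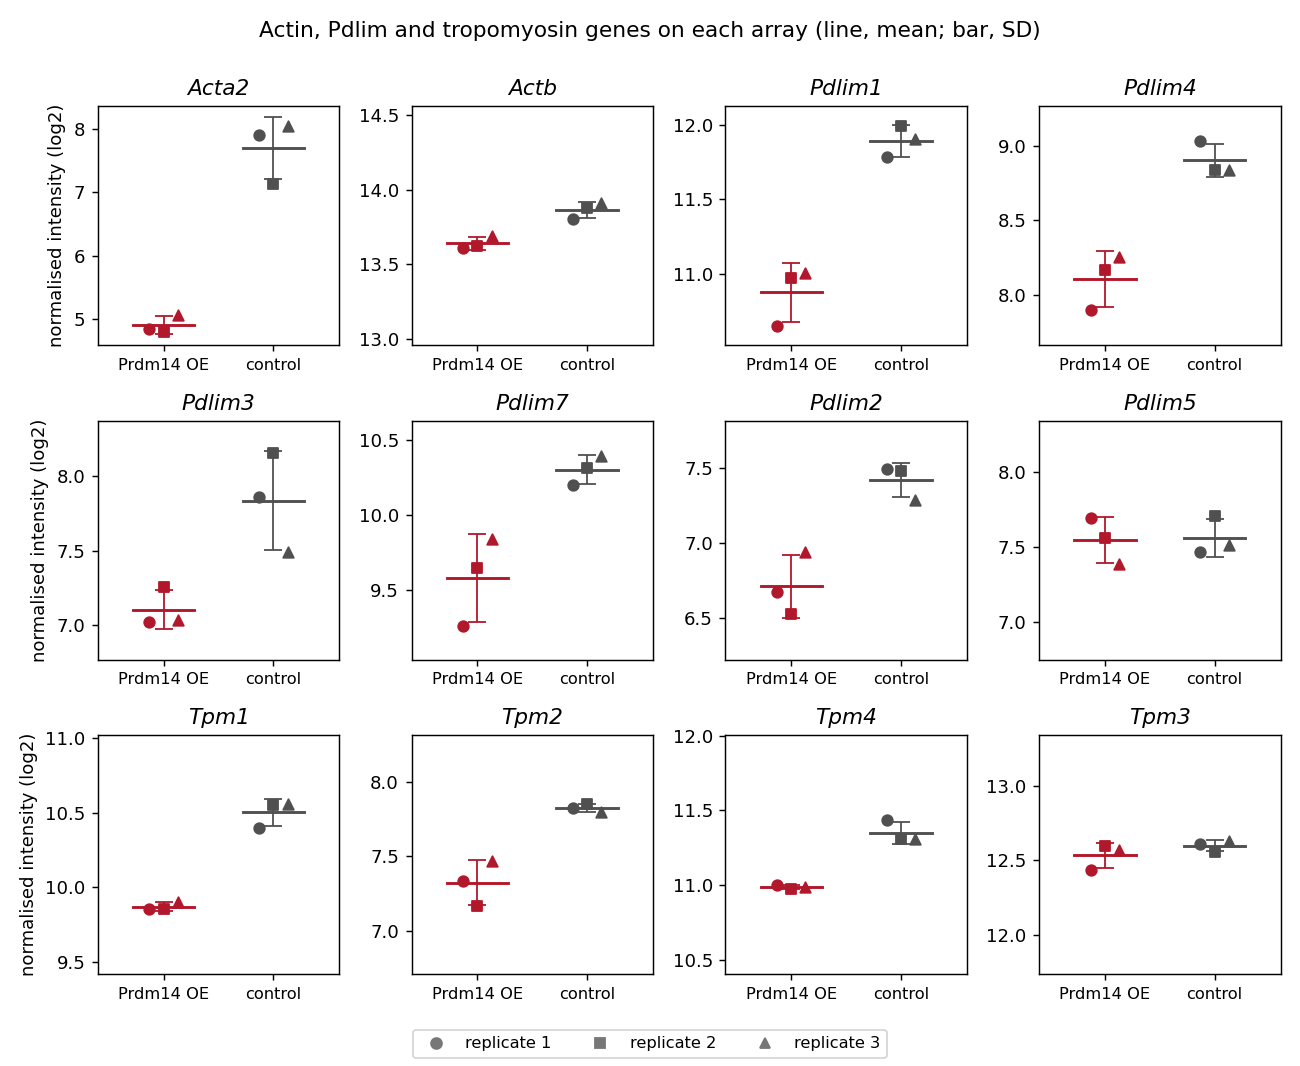
Normalised log2 intensity (y axis, a separate range per panel) of 2 actin, 6 Pdlim and 4 tropomyosin genes on each array (x axis, Prdm14 overexpression, OE, left and control vector right), with lines for the means, bars for the SD and marker shapes for the replicate number. The groups interleave for Pdlim5 and Tpm3 and are apart for every other gene shown, of which only Acta2, Pdlim1, Pdlim4 and Tpm1 were called.

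Tropomyosins are coiled-coil proteins that lie along the filament and set which myosins and severing proteins can reach it. Tpm1 (probe ILMN_3007072) had normalised values of 9.85, 9.85 and 9.90 in overexpressing cells, against 10.40, 10.55 and 10.56 in control cells. The 3 overexpression values lay within a few hundredths of each other and clear of the controls, and Tpm1 fell by 0.63 on the log2 scale (1.55-fold, SE 0.09, limma adjusted p = 0.00443). In raw signal the groups overlapped, with 1237, 937 and 1069 in overexpressing cells, against 1167, 1408 and 1575 in control cells. The call was lost in each of the 6 fits that left out 1 array (limma adjusted p = 0.0128 to 0.0231), with differences of -0.68 to -0.60, and also with arrays scaled to a common median (-0.52, limma adjusted p = 0.0249) and with no detection filter (limma adjusted p = 0.0108). A second Tpm1 probe gave -0.46 ± 0.10 (limma adjusted p = 0.0297).

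The other tropomyosins were not called. Tpm2, best known from striated and smooth muscle, had values of 7.34, 7.17 and 7.47 in overexpressing cells, against 7.82, 7.85 and 7.80 in control cells, a difference of -0.50 ± 0.10 (limma adjusted p = 0.0204). Tpm4, a non-muscle isoform, had 11.00, 10.97 and 10.99 in overexpressing cells, against 11.43, 11.31 and 11.31 in control cells, a difference of -0.36 ± 0.09 (limma adjusted p = 0.0423). For both genes the groups did not overlap. Tpm3, another non-muscle isoform, differed by -0.06 ± 0.09 at its brightest probe, with a 95% interval of -0.28 to 0.15, and its groups overlapped. Of its 2 dimmer probes, one gave 0.43 ± 0.20 (limma adjusted p = 0.246) and was higher in all 3 array pairs, and the other gave 0.0052.

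The transgelins and calponins bind along actin filaments and are abundant in smooth muscle, with Tagln2 and Cnn2 as the widely expressed forms. Tagln2 had normalised values of 10.87, 10.76 and 11.07 in overexpressing cells, against 11.46, 11.28 and 11.39 in control cells. These groups were apart, and the difference was -0.48 ± 0.11 (limma adjusted p = 0.0333). Cnn2 had values of 7.04, 7.22 and 6.81 in overexpressing cells, against 7.21, 7.91 and 7.40 in control cells, a difference of the same size, -0.48 ± 0.18, but with overlapping groups (limma adjusted p = 0.151).

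None of the 4 tested myosin subunits, the motors that pull on filaments, was called. The non-muscle heavy chains, Myh9 and Myh10, differed by -0.10 ± 0.11 and -0.17 ± 0.16. The essential light chain Myl6 differed by 0.01 ± 0.09 and the regulatory light chain Myl12b by 0.06 ± 0.11. The 95% intervals of these 4 genes ran from -0.53 at the lowest to 0.29 at the highest, and adjusted p lay between 0.566 and 0.975, so that a difference as large as that of Pdlim1 lay outside each interval. Myl12b had 2 dimmer probes with larger values, 0.29 and 0.43, that did not pass the threshold either (limma adjusted p = 0.101 and 0.116).

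Of the 8 tested focal adhesion and crosslinking genes none was called. Lasp1, which encodes a LIM and SH3 protein of adhesions and membrane ruffles, came nearest, with normalised values of 12.46, 12.48 and 12.69 in overexpressing cells, against 12.86, 12.97 and 12.90 in control cells. The groups did not overlap, the difference was -0.36 ± 0.10 (limma adjusted p = 0.0626), and 2 further probes gave -0.32 and -0.49. Zyx, a LIM protein of adhesions under tension, differed by -0.30, and Vasp, a filament elongation factor, by -0.28, but Vasp was above background on only 1 of 3 overexpression arrays. The adhesion adaptors Pxn and Vcl differed by -0.15 and -0.09. The crosslinkers lay at or above 0, with 0.00 for Flna, 0.05 for Actn4 and 0.18 ± 0.09 for Actn1 (limma adjusted p = 0.276). Actn1 encodes an alpha-actinin to which PDZ-LIM proteins bind. By the brightest probe of each gene, it was the only member with all 3 overexpression values above the control values. These values were 11.99, 12.15 and 12.10 in overexpressing cells, against 11.87, 11.92 and 11.90 in control cells. Over all tested genes, 1250 of 8529 were apart in this direction. A dimmer probe of Actn4 (0.16, limma adjusted p = 0.373) and a dimmer probe of Myl12b (0.29, limma adjusted p = 0.101) were apart in the same direction.

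The remaining members were not called either. Msn, which encodes the ERM protein moesin that ties filaments to the membrane, differed by -0.23 ± 0.14 at its brighter probe and by -0.63 ± 0.14 at a dimmer one (limma adjusted p = 0.0279). Among the turnover genes, the cofilins Cfl1 and Cfl2, which sever filaments, differed by 0.10 and -0.24, the capping protein gene Capg by -0.16 and the monomer-binding profilin gene Pfn1 by 0.04. Cfl2 was above background on 2 of 3 overexpression arrays. Vim, the intermediate filament gene of mesenchymal cells, had values of 10.90, 10.87 and 10.96 in overexpressing cells, against 10.72, 10.65 and 10.94 in control cells. It was higher in all 3 same-numbered pairs although the groups overlapped, with a difference of 0.15 ± 0.11 (limma adjusted p = 0.460).

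**Figure D3:**
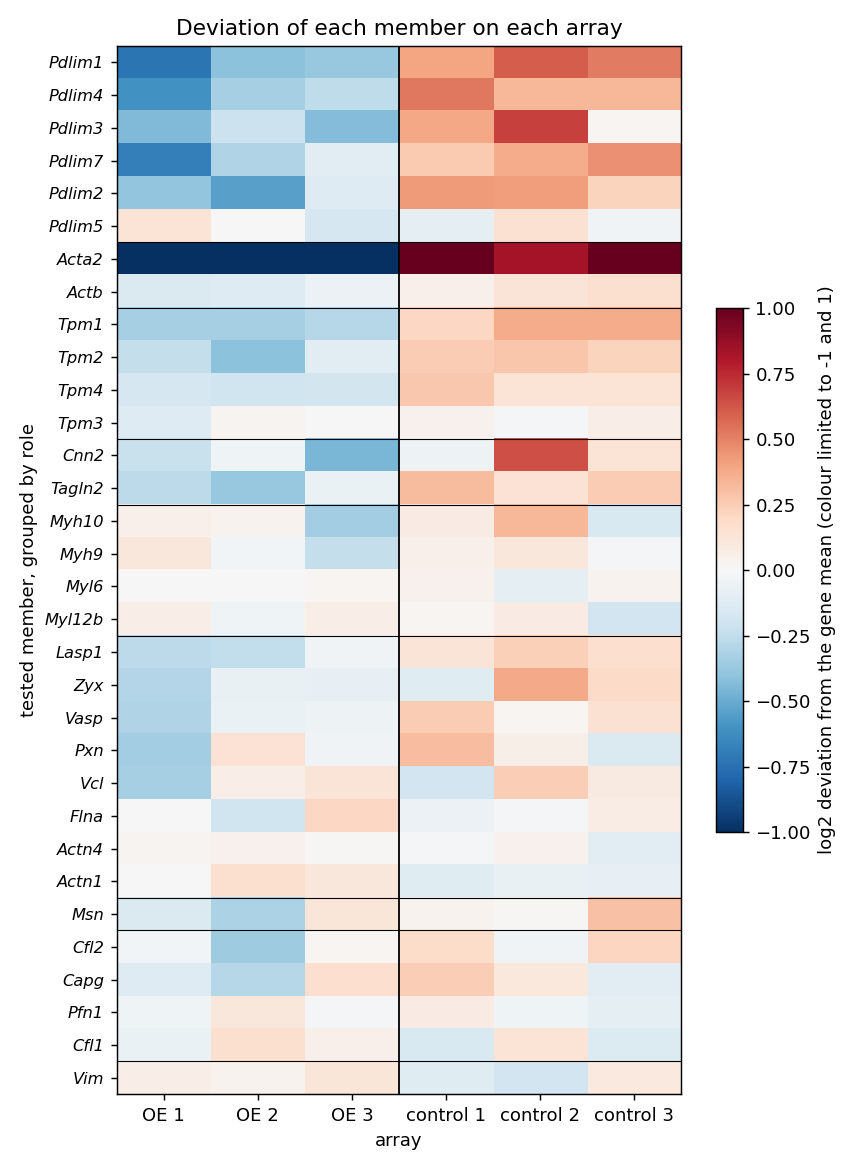
Deviation of each tested member (y axis, grouped by role) from its mean over the 6 arrays (colour, log2 units, limited to -1 and 1) on each array (x axis, 3 Prdm14 overexpression, OE, then 3 control vector). The Pdlim rows other than Pdlim5 and the rows of Acta2, Tpm1, Tpm2 and Tpm4 are blue on all 3 overexpression arrays, and the myosin and turnover rows show no such split.

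The differences were not equally deep on the 3 overexpression arrays. Against the control mean, the median deviation of the 32 members was -0.31, -0.23 and -0.18 on overexpression replicates 1, 2 and 3, and between -0.0019 and 0.02 on the control arrays. For the Pdlim genes these medians were -0.91, -0.70 and -0.57, and for the focal adhesion and crosslinking genes -0.40, -0.09 and -0.04, so that the focal adhesion shift was deepest on overexpression replicate 1. All tested genes together lay between -0.0023 and 0.0089 on these arrays.

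Genes that act upstream of or beside these members were read from lists of 123 genes, of which 83 were tested. Of these 2 (2.41%) were called lower, near the 2.50% of all tested genes, and 0 higher, with a median difference of -0.05. All overexpression arrays lay below all control arrays for 24 of the 83, against 15.3% of all tested genes, and above them for 7. The difference was negative for 61.4% of the 83, against 50.3% of all tested genes. Rhoc, a GTPase that drives contractility, had signals of 248, 181 and 195 in overexpressing cells, against 252, 202 and 275 in control cells, and fell by 0.70 on the log2 scale (SE 0.12, limma adjusted p = 0.00876), although the raw signals overlapped. Ccn2 is a matricellular gene that responds to SRF and YAP activity. Its signals were 2542, 2041 and 2315 in overexpressing cells, against 2493, 2815 and 3019 in control cells. It fell by 0.52 (SE 0.09, limma adjusted p = 0.00875), although the raw signals overlapped here too. Both calls were close to the threshold, and those of Rhoc and Ccn2 were held in 9 and 6 of 17 alternative settings. With 1 array left out, Rhoc was called in 1 of 6 fits and Ccn2 in 0 (limma adjusted p = 0.0175 to 0.0384). Of 11 listed SRF factors and targets only 3 were tested, and 1 of these, Ccn2, was called lower. None was called among 14 genes of the Arp2/3 complex and its activators, 7 formin and Ena genes, 13 integrins and adhesion adaptors, 18 monomer-binding, capping and bundling genes, 8 tubulins or 8 other LIM domain genes. Srf itself differed by -0.21 ± 0.14 (limma adjusted p = 0.419), and the LIM domain gene Csrp1, a partner of alpha-actinin and zyxin, by -0.59 ± 0.11 (limma adjusted p = 0.0109). Limch1, of the same LIM domain list, went the other way, by 0.88 ± 0.20 (limma adjusted p = 0.0285), with no overlap between the groups. Of the 8 tested genes of that list, 5 differed downwards and 3 upwards.

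Markers of other cell types were read beside the members. Of 5 smooth muscle markers, Des and Smtn were tested and differed by -0.50 and 0.21 without passing the threshold, and the mean level of this list was 7.46 to 7.76 on the overexpression arrays and 7.72 to 7.77 on the control arrays. Of 8 fibroblast markers only Thy1 was tested (-0.15), and of 6 mesoderm markers none. The trophectoderm list had a lower mean with overexpression, mostly through its keratin genes. Its 3 tested genes of 6 averaged 6.36 to 6.49 on the overexpression arrays and 7.40 to 7.76 on the control arrays, and the keratin genes Krt8 (-1.59, limma adjusted p = 0.00103) and Krt18 (at least 1.91-fold lower on this scale, limma adjusted p = 0.000163) fell, while Gata3 (-0.20) was not called. Krt18, like Acta2, was detected on the control arrays alone and could only have been lower, whereas Krt8 was detected on all 6 arrays. The defining trophectoderm factor genes Cdx2, Elf5 and Tfap2a were not analysed here. Of 3 tested neural markers Map2 fell (-0.79, limma adjusted p = 0.00351), while Nes (0.51) and Ncam1 (0.09) were not called, and the list mean was 7.18 to 7.39 on the overexpression arrays and 7.23 to 7.42 on the control arrays. The 2 tested primitive endoderm markers of 8, Sox7 (0.38) and Col4a1 (0.44), were not called, and the groups overlapped for Sox7. Gata6 and Dab2 did not pass the detection filter, and Gata4, Sox17, Foxa2 and Pdgfra were not analysed here. The mean of the 2 tested markers was 9.03 to 9.25 on the overexpression arrays and 8.64 to 8.87 on the control arrays, without overlap. The part of such cells in the differences of the members was not tested.

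The CArG box, the site that SRF binds, was sought on both strands from 250 bases before to 50 after the start site, and 37 of the 41 members matched the RefSeq promoters. An exact match was found in 5 of these 37 genes (13.5%), against 1.81% of 27025 genes. These were Actg1, Myl9, Cnn2, Vcl and a second promoter of Myl6, and none of the 4 genes that fell had one. The 3 tested genes with an exact match had differences of -0.48 (Cnn2), -0.09 (Vcl) and 0.01 (Myl6). They are printed as 40 bases around the box, which is in capitals, to set beside the promoters of the genes that fell: Cnn2 at chr10:79988530-79988569 (plus strand), Vcl at chr14:20929157-20929196 (plus strand) and Myl6 at chr10:128493034-128493073 (minus strand).
Cnn2: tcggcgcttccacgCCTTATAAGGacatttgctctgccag
Vcl: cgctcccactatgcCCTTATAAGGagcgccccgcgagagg
Myl6: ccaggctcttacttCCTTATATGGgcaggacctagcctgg
The boxes of Cnn2 and Vcl read the same letters. A search that allowed 1 mismatch, added after the sequences had been seen, found a stretch in Acta2 (first base at -84 and -34), Pdlim4 (-174) and Tpm1 (-221 and -80) and none in Pdlim1. This looser pattern occurred in 22.5% of all genes, in 11 of the 37 members (29.7%) and in 3 of the 4 that fell (75%). It is thus common, and a share of 4 genes is imprecise. The TATA box (TATAAA, either strand) was found in 3 of 37 members (8.11%), against 15.7% of all genes, and in none of the 4 that fell. A match is a description of the letters in these windows only.

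**Figure D4:**
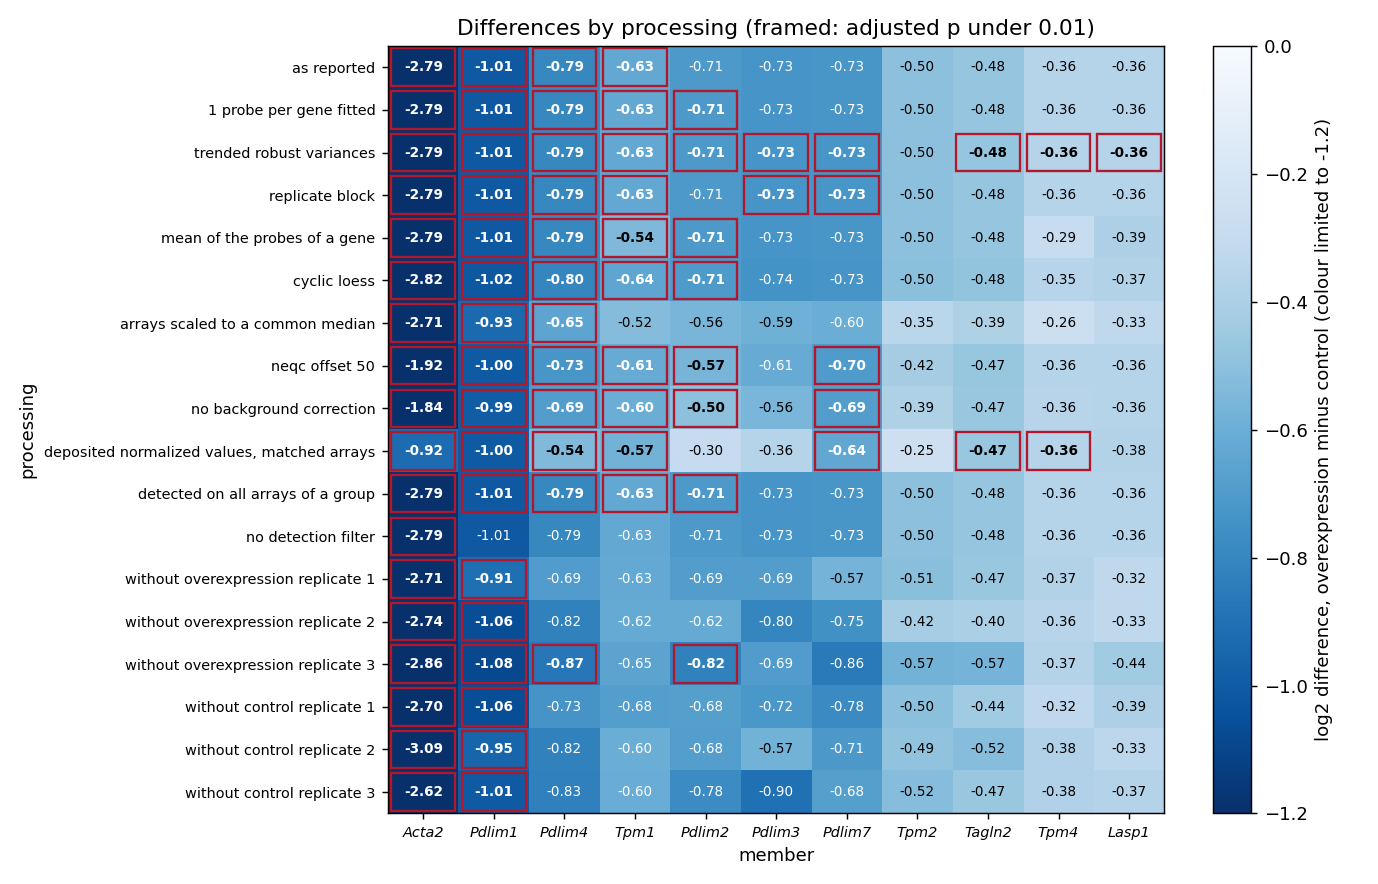
Log2 difference, Prdm14 overexpression minus control vector (numbers and colour, limited to -1.2), of 11 members (x axis) under the processing reported and 17 alternatives (y axis, without the deposited table under its own sample names), with red frames where the limma adjusted p was under 0.01. Acta2 is framed in every row and Pdlim1 in all but the fit with no detection filter, while the frames of Pdlim4 and Tpm1 are missing from most rows that leave out an array.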

How the data were processed

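Total RNA of 3 Prdm14 overexpression and 3 control vector ES cell samples was hybridised to Illumina Mouse WG-6 BeadChips. The authors deposited the bead signal intensity of each probe, not normalised, with a detection p-value against negative control beads. The authors also deposited normalised log2-scale values, made with lumi per the submitters' processing notes (version and scanner software not given in the sources used here). Of its columns, 4 of 6 correlated best with another array, 2 of them in the other group (r = 0.904 to 0.912 for the partners), so this version served as an alternative only.

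Intensities were background-corrected by normexp, using the detection p-values, with an offset of 16, then quantile-normalised and put on a log2 scale (neqc, limma 3.58.1, R 4.3.3). The 14604 probes detected (p under 0.01) on 3 or more of the 6 arrays entered lmFit and eBayes, and Benjamini-Hochberg adjusted p-values were read at 0.01, as in the study's methods. A gene is its brightest tested probe. Lower bounds set each undetected array to the lowest normalised value among its detected probes or the probe's own, whichever was higher. The script was tested on simulated data.

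Only probes listed in the deposited normalised table were named: of these 15944 probes 13778 had 1 symbol, 6 several and 2160 none, and 13765 matched RefSeq (GRCm38.p6) by gene identifier. Promoter sequences are from RefSeq GRCm38.p6. The members and all gene lists were chosen with earlier results of these data known. The count of 1 pathway list is not reported here. Named were all 41 members, every pathway and marker gene past the threshold, and Prdm14. Srf, Csrp1, Limch1 and the uncalled markers with values were named after these were seen.

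Samples with the same replicate number deviated together (r = 0.121, 0.390 and 0.324 over the tested probes, against -0.311 to 0.0582 for other pairs), and per the labels replicates are consecutive passages, so the number was fitted as a block as an alternative. The other alternatives were the background correction, offset, normalisation, detection filter, probe choice, variance model, deposited table, and each array left out. The number of arrays, 3 per group, limits the precision.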

Additional observations from a re-analysis of the deposited data

How the results depend on the processing

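No result changed direction past the threshold in any setting tried, and 0 members were called higher in each of them. Members called lower numbered 4 as reported, 1 with no detection filter (Acta2), 10 with trended robust variances and 7 in the deposited normalised values matched to arrays. They were 2 to 4 with 1 array left out, where Acta2 and Pdlim1 were kept in all 6 fits. With the replicate number as a block 6 members were called, the 4 reported with Pdlim3 and Pdlim7, and no other member call changed. With 1 probe per gene fitted, chosen after seeing the data, 5 were called. Genes called in all, 341 as reported, numbered 87 with no detection filter (24 higher, 63 lower), 591 with trended robust variances (243 higher, 348 lower) and 122 to 216 with 1 array left out (34 to 74 higher, 88 to 149 lower). Scaling the arrays to a common median moved the median of all genes to 0.11 and gave 209 higher and 145 lower calls (59.0% higher), against 128 higher and 213 lower as reported. In the deposited table under its own sample names, where columns stand in the other group, limma called 0 genes and 0 members, with 144 lower and 89 higher genes and 3 lower members at an unadjusted p under 0.05.

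The median difference of the members was -0.15 without background correction, -0.18 with offset 50, -0.11 with median scaling, -0.082 and -0.11 in the deposited table under its names and matched, and -0.30 to -0.20 with 1 array left out. The actins gave -1.03 without background correction, -1.07 with offset 50, -0.22 and -0.58 in the deposited table, and -1.65 to -1.41 with 1 array left out. The Pdlim median was -0.60 with median scaling, -0.15 and -0.45 in the deposited table, and -0.84 to -0.69 with 1 array left out. The tropomyosins gave -0.37 without background correction, -0.30 with median scaling, -0.10 and -0.31 in the deposited table, and -0.47 to -0.39 with 1 array left out. The transgelins and calponins gave -0.37 with median scaling, -0.16 and -0.34 in the deposited table, and -0.53 to -0.40 with 1 array left out. With median scaling the focal adhesion genes gave -0.0012 and the turnover genes 0.039. Under the deposited names the myosins gave 0.047 and Vim -0.016. The probe mean gave -0.43 for the ERM gene. With 1 array left out, the focal adhesion median was -0.21 to -0.0078, the ERM gene -0.35 to -0.13, the turnover genes -0.12 to -0.02, the myosins -0.09 to -0.0034 and Vim 0.09 to 0.23. The cause of these shifts was not tested. Dim genes are limited by their distance from background, as for Acta2, Vasp and Cfl2, and 3 arrays per group leave calls near the threshold open to single arrays.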

Other observations

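For 11 members more than 1 probe was tested, and for 7 of them all probes had the same sign. Actb had 5 probes with differences of -0.27 to 0.37, none called. The 2 bright probes lay at -0.27 and -0.22 with little spread. The 3 dimmer ones lay at 0.01, 0.26 and 0.37, and each was highest on replicate 2 in both groups. The dimmest of these Actb probes gave normalised values of 7.52, 8.50 and 8.18 in overexpressing cells, against 7.84, 8.21 and 7.02 in control cells, and so varied more between replicates than between groups. Tpm3 behaved alike, with its 2 dimmer probes highest on replicate 2 in both groups and its brightest probe highest on replicate 3 in control cells. Which of these probes follows the level of the mature transcript was not tested.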
